A study of Arabidopsis thaliana with 79 samples.

Results

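NAC014 (locus AT1G33060) is the gene described here, in the messenger RNA of roots and shoots of Arabidopsis thaliana seedlings kept in air or without oxygen. The search was for NAC transcription factor genes, by a gene symbol that starts with NAC, ANAC or ATNAC and a digit or is one of the family's older names such as ATAF1, VND7 or CUC2. Among the 22746 probe sets that measure transcripts, 13513 are annotated to 1 gene, and 1 of these, for NAC014, met the rule. None of the 503 probe sets annotated to several genes carried such a symbol, and 8730 probe sets have no gene name in the annotation used. RefSeq holds 109 genes whose symbol or synonym meets the rule, so NAC014 stands for itself and not for the family, and the other family members were not analysed here.

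NAC proteins are plant transcription factors that bind DNA through a conserved domain at their N-terminus. Some carry a membrane anchor near their C-terminus, stay bound to a membrane and are released by cleavage when a plant meets stress, after which they enter the nucleus. NAC014 is listed among these membrane-tethered members. NAC013 and NAC017, 2 other membrane-tethered members, relay mitochondrial dysfunction to the nucleus, and the family is also known for its roles in senescence, secondary wall formation and organ boundaries. A change in transcript level says nothing of how much of a tethered factor is released.

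The 79 Affymetrix ATH1 arrays form 36 groups, 47 arrays from roots and 32 from shoots, of Col-0 seedlings 7 days old, whose plates stood for 2 h in a chamber filled with argon (hypoxia) or stayed in air. All plants carried the ribosomal protein transgene His6FLAG-RPL18B, driven by one of 13 promoters. Polysomal RNA was purified with the tagged ribosomes, so its source cells are those in which the promoter is active: by the labels the endodermis for pSCR, vascular tissue for pSHR and pWOL, atrichoblasts (roots) or trichomes (shoots) for pGL2, phloem for pSUC2 and pSultr2;2, cortex for pCO2 and pPEP, the meristem for pRPL11C, mesophyll for pRBCS, epidermis for pCER5 and stomata for pKAT1. The p35S promoter is active in most cells, and total RNA came from plants of the p35S line. There were 30 groups of 2 arrays, 5 of 3 and 1 of 4, 10 populations of roots and 7 of shoots were sampled in air and under hypoxia, and pSultr2;2 in air alone.

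Values are log2 signals made by the authors with RMA, and 1 unit is a 2-fold difference. Array medians lay between 6.31 and 6.64, and replicate arrays of a group correlated at 0.973 to 0.994. PDC2, a pyruvate decarboxylase gene of fermentation used to check the treatment, was called higher under hypoxia in all 10 root and all 7 shoot populations. The measured cell type markers were 4 of the 28 listed, so most lines could not be checked. FMA, a guard cell lineage factor, was higher in pKAT1 (mean 8.40 in air) than in any other air group (next 5.97, shoot total RNA), and AT1G09750, the gene of the pPEP promoter, was highest among root groups in pPEP (10.25). AT1G62500, the gene of the pCO2 promoter, lay at 4.86 in root pCO2 and at 5.03 in root pPEP, so its own line did not stand out. EXPA7 of root hairs lay between 6.09 and 9.18 in every root group in air, lines of other cell types included.

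In air the group means of NAC014 transcript covered a range of 0.84 in roots and 0.55 in shoots. Over all 79 arrays its signal ran from 5.95 to 8.23, with a spread between replicate arrays of 0.28 (moderated SD). The 26 root arrays in air had a lowest value of 5.95, a median of 6.92 and a highest of 7.49, and the 17 shoot arrays 6.69, 7.21 and 7.84. Group means in air ran from 6.40 (root pPEP) to 7.25 (root pCO2) in roots and from 6.87 (pGL2) to 7.43 (pSUC2) in shoots. Put in order, none of the 10 pairs of neighbouring root groups and none of the 7 pairs of neighbouring shoot groups was more than 2 standard errors apart. The largest step in air, 0.31, separated root pPEP from root total RNA. Neighbours in such an order lie close by construction, so these steps do not test groups further apart.

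**Figure D1:**
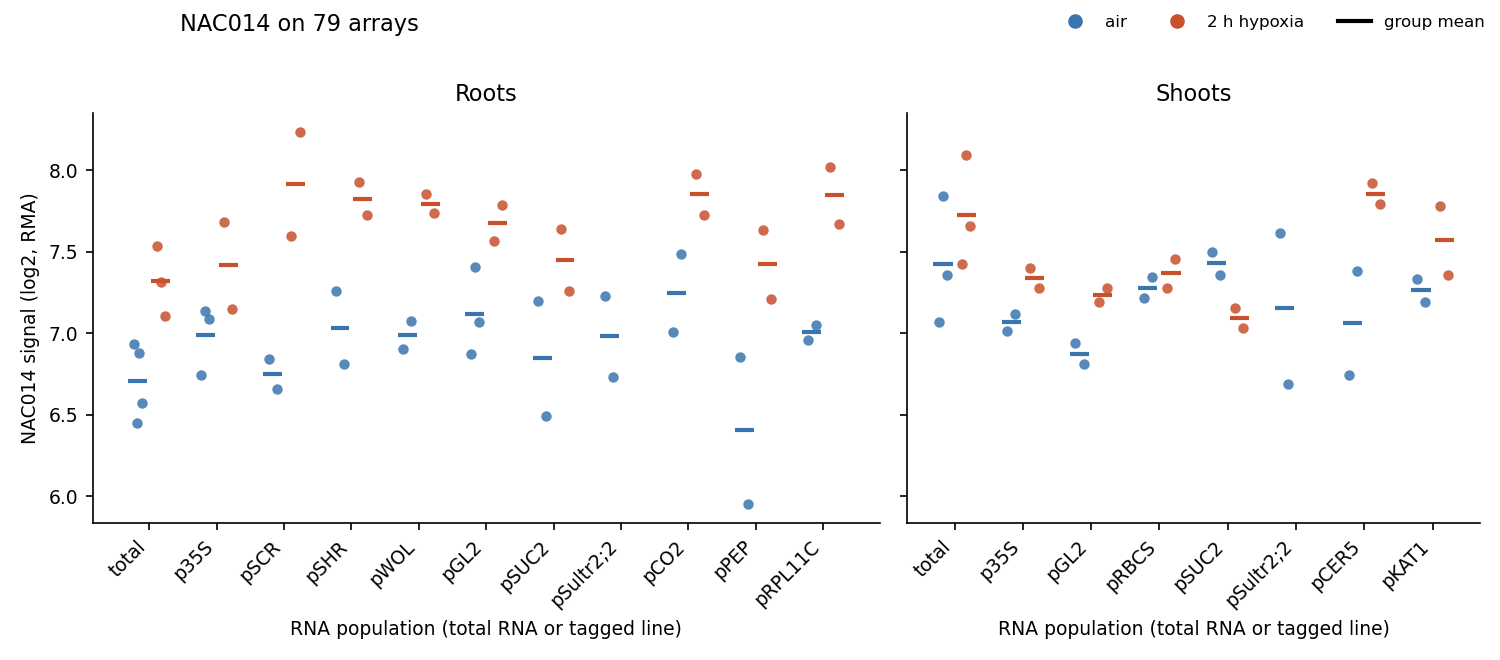
NAC014 signal (log2, RMA) on each of the 79 arrays, by RNA population, with roots left and shoots right, air in blue and 2 h of hypoxia in orange; short lines are group means. In each of the 10 root populations all hypoxic arrays lie above all air arrays, while in shoots pSUC2 goes the other way and total RNA and pRBCS overlap.

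Which cell types hold more or less of the transcript was asked by setting each promoter line against the mean of the other lines of its organ in air. A call required an adjusted p under 0.05 (limma, Benjamini-Hochberg over all 22746 probe sets) and a size of at least 1. For NAC014 0 of 15 differences were called, and 1 had an unadjusted p under 0.05. That 1 was root pPEP, a line of the cortex, at −0.59 ± 0.21 (SE, adjusted p 0.0245), where 11.3% of all probe sets were called in either direction and 17.7% were lower by adjusted p alone. The value rested on 1 array: the pPEP arrays in air read 6.86 and 5.95, and without the lower, replicate 2, the difference was −0.14 (adjusted p 0.842), while without replicate 1 it was −1.04 and called (adjusted p 0.00303). The other 14 differences ran from −0.36 (shoot pGL2) to 0.36 (root pCO2). The share of probe sets called in these was 4.78% in root pSCR, 2.16% in pSHR, 0.567% in pWOL, 0.989% in pGL2, 3.55% in pSUC2, 0.928% in pSultr2;2, 2.88% in pCO2 and 4.55% in pRPL11C. In shoots it was 0.783% in pGL2, 5.41% in pRBCS, 12.1% in pSUC2, 1.42% in pSultr2;2, 11.6% in pCER5 and 5.79% in pKAT1. These comparisons share arrays within an organ.

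Root and shoot levels in air differed in total RNA. The 4 root arrays read 6.94, 6.45, 6.88 and 6.57, and the 3 shoot arrays 7.07, 7.84 and 7.35. The difference of −0.71 ± 0.21 passed the adjusted p (0.00471) but not the size of 1, in a comparison where 22.9% of probe sets were called and 22.6% were lower in roots by adjusted p alone. Without shoot replicate 2 it was −0.50 with an adjusted p of 0.0854. In polysomal RNA the differences between organs were −0.08 (p35S), 0.24 (pGL2), −0.58 (pSUC2) and −0.17 (pSultr2;2). The pSUC2 arrays read 7.20 and 6.49 in roots and 7.50 and 7.36 in shoots (limma, adjusted p 0.0928). The pSUC2 difference passed the adjusted p with arrays centred on their medians (−0.73, adjusted p 0.0235), with quantile normalization (−0.71, adjusted p 0.0303) and without root replicate 1 (−0.94). In all, 0 of 5 organ differences in air were called by limma and 2 had an unadjusted p under 0.05, while 21.5% (pGL2) to 22.9% (total RNA) of probe sets were called, with 22.1% in p35S, 21.9% in pSUC2 and 22.2% in pSultr2;2.

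Under hypoxia NAC014 was higher in roots. In total RNA of roots the 3 hypoxic arrays read 7.53, 7.31 and 7.10, above the 4 air arrays. In the endodermis line pSCR the air arrays read 6.84 and 6.66 and the hypoxic arrays 7.60 and 8.23, and in the cortex line pPEP the hypoxic arrays read 7.63 and 7.21 against 6.86 and 5.95. In both stele lines the hypoxic arrays lay near each other, at 7.93 and 7.72 in pSHR (air 7.26 and 6.81) and at 7.85 and 7.74 in pWOL (air 6.90 and 7.07). The line of dividing cells, pRPL11C, went from 6.96 and 7.05 to 8.02 and 7.67.

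The other 4 root populations were p35S, pGL2, pSUC2 and pCO2. In p35S the air arrays read 6.74, 7.14 and 7.09 and the hypoxic arrays 7.68 and 7.15, a gap between the nearest arrays that is smaller than their spread. In pGL2 the air arrays read 6.87, 7.40 and 7.07 and the hypoxic arrays 7.56 and 7.79. The phloem line pSUC2 went from 7.20 and 6.49 to 7.64 and 7.26, and the cortex line pCO2 from 7.01 and 7.49 to 7.98 and 7.72. Every hypoxic array was thus above every air array in 10 of 10 root populations. In single populations 8.5% (total RNA) to 27.3% (pRPL11C) of all probe sets had such a separation, and 2.41% had it in all 10.

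Tested one population at a time, the rise was called in 2 of 10 root populations and had an adjusted p under 0.05 in 3. It was 1.17 ± 0.28 in pSCR (adjusted p 0.00323, 2 arrays per condition), 1.02 ± 0.28 in pPEP (adjusted p 0.00953) and 0.84 ± 0.28 in pRPL11C (adjusted p 0.028), in all of which both hypoxic arrays were above both air arrays. The share of probe sets called higher was 3.38% in pSCR, 3.51% in pPEP and 3.19% in pRPL11C, where 6.26% were higher by adjusted p alone. Each of these rests on few arrays. The pSCR call was lost without hypoxic replicate 2 (0.85, adjusted p 0.154), the pPEP call without air replicate 2 (0.57, adjusted p 0.335) or hypoxic replicate 1 (0.81, adjusted p 0.155), while pSHR without air replicate 1 (1.02, adjusted p 0.0479) and pRPL11C without hypoxic replicate 2 (1.01, adjusted p 0.0441) became calls.

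The remaining root responses were below these 3 in size and did not pass. They were 0.81 ± 0.28 in pWOL (adjusted p 0.0519), 0.79 ± 0.28 in pSHR (adjusted p 0.0602), 0.61 ± 0.21 in total RNA (adjusted p 0.0614), 0.60 in pSUC2 and in pCO2, 0.56 in pGL2 and 0.43 ± 0.26 in p35S (adjusted p 0.483). In total RNA, where the replicate numbers were taken to pair the arrays, the limma response with replicate as a block was 0.52 (adjusted p 0.0462). The block was fitted in all populations at once. The spread behind this p thus also draws on populations in which pairing is not established. The share called higher was 3.55% in pWOL and in pSUC2, 3.24% in pSHR, 2.13% in total RNA, 4.15% in pCO2, 2.66% in pGL2 and 1.98% in p35S. With arrays centred on their medians pSHR, pWOL and total RNA passed the adjusted p (0.0457, 0.0351 and 0.044) at sizes of 0.81, 0.83 and 0.62. An unadjusted p under 0.05 was reached in 9 of the 10 root populations. The share of all probe sets that reach this in as many was not counted, so how unusual it is cannot be said. Whether the response differs among the 8 root lines was tested with a moderated F-test, and no difference was detected (range of responses 0.61, unadjusted p 0.751, adjusted p 1.00, where 3.39% of probe sets were called), nor over all 10 root populations (unadjusted p 0.701).

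Averaged over the 10 root populations the response of NAC014 was 0.74 ± 0.08 (SE, adjusted p 2.4e-10), a 1.67-fold rise, with a 95% interval of 0.57 to 0.91. This average, its shoot counterpart and their difference were added after the values had been seen. By adjusted p alone 19.3% of all probe sets were higher in this average, and the NAC014 response was larger than that of 95.8% of probe sets. Over the 8 promoter lines alone, without total RNA and p35S, which come from plants of 1 line, it was 0.80 ± 0.10 (adjusted p 1.69e-09), where 17.8% of probe sets were higher. EXPA7, the 1 measured root hair marker of 2 listed, was lower under hypoxia in 10 of 10 root populations, with means of 6.09 to 9.18 in air and 5.50 to 7.51 under hypoxia. Both measured genes listed for cortex were higher under hypoxia in 10 of 10 root populations, as group means. AT1G62500 lay at 4.61 to 5.03 in air and 4.82 to 5.70 under hypoxia, and AT1G09750 at 5.96 to 10.25 and 6.46 to 10.47. The AT1G62500 levels are near those of the guard cell gene FMA in roots (4.85 to 5.24 in air), and its own line did not stand out. The share of all probe sets with means that move one way in 10 of 10 root populations was not counted. The part of these markers in the NAC014 response was not tested. In whole organs and in lines alike, more RNA per cell and more cells that hold the transcript cannot be told apart.

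**Figure D2:**
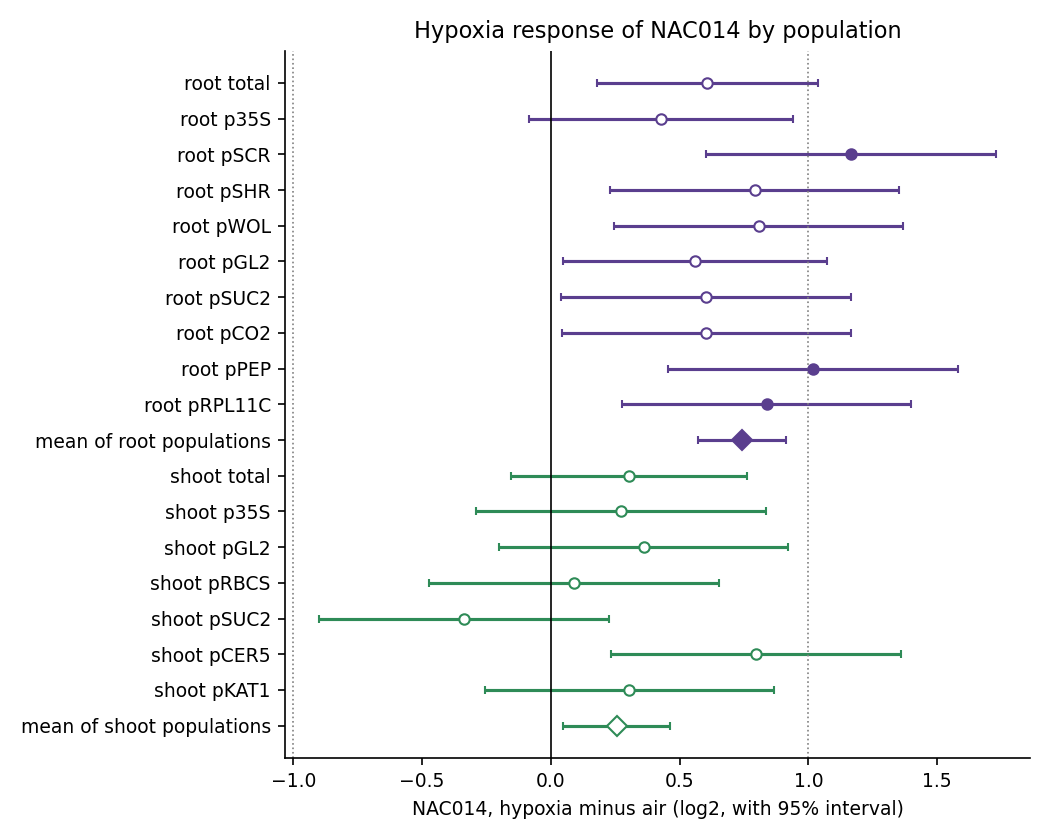
Hypoxia minus air difference of NAC014 (log2) in each of the 17 populations and averaged over the root and the shoot populations, with 95% intervals from the model. Filled symbols have an adjusted p under 0.05 and dotted lines mark a 2-fold change. The root responses run from 0.43 to 1.17 and the shoot responses from −0.34 to 0.80.

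In shoots the averaged response was smaller, and 6 of 7 population means were higher under hypoxia. The 3 total RNA arrays read 7.07, 7.84 and 7.35 in air and 7.42, 8.10 and 7.66 under hypoxia, which overlap as groups, and the response was 0.30 ± 0.23 (adjusted p 0.587). Within the numbered pairs the hypoxic array was higher in 3 of 3, by 0.35, 0.25 and 0.30, and with replicate as a block the response was again 0.30 and did not pass (adjusted p 0.33). In the epidermis line pCER5 the arrays went from 6.74 and 7.38 to 7.92 and 7.79, by 0.80 ± 0.28 (adjusted p 0.0858). The pCER5 value depended on its air arrays: it was 1.11 and called without replicate 2 (adjusted p 0.0495) and 0.48 without replicate 1 (adjusted p 0.745). The share of probe sets called higher was 1.28% in total RNA and 1.94% in pCER5.

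The phloem line pSUC2 was the 1 population in which all hypoxic arrays were below all air arrays. Its air arrays read 7.50 and 7.36 and its hypoxic arrays 7.15 and 7.03, a difference of −0.34 ± 0.28 that did not pass (adjusted p 0.609), and 26.7% of probe sets had such a separation downwards. In the other 4 shoot populations the differences were 0.36 in the trichome line pGL2 (6.94 and 6.81 to 7.19 and 7.28), 0.31 in the guard cell line pKAT1 (7.33 and 7.19 to 7.78 and 7.35), 0.27 in p35S (7.01 and 7.12 to 7.40 and 7.28) and 0.09 in the mesophyll line pRBCS (7.21 and 7.34 to 7.28 and 7.46). Hypoxic arrays were above air arrays in 4 of 7 shoot populations, below in 1 and overlapping in 2, and 9.03% of all probe sets were above in at least 4. In limma 0 of 7 shoot responses were called and 1, pCER5, had an unadjusted p under 0.05. The share called higher was 2.18% in pSUC2, 1.98% in pKAT1, 1.16% in pGL2 and 1.05% in p35S and in pRBCS.

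Averaged over the 7 shoot populations the response was 0.26 ± 0.10 (adjusted p 0.0686), a 1.19-fold difference with a 95% interval of 0.05 to 0.46. With replicate as a block the value was again 0.26 and passed (adjusted p 0.0134). The replicate numbers were taken to pair total RNA only, so the block is not established for the other populations in this average. By adjusted p alone 9.37% of all probe sets were higher in this average. Over the 5 promoter lines alone it was 0.24 (adjusted p 0.204), where 7.9% were higher. The F-test among the 5 shoot lines found no difference (range of responses 1.13, unadjusted p 0.0845, adjusted p 0.655), in a test that called 1.29% of probe sets, nor did that over all 7 populations (unadjusted p 0.209).

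The difference between organs was tested directly. The averaged root response exceeded the averaged shoot response by 0.49 ± 0.13 (adjusted p 0.00496, interval 0.22 to 0.76), a comparison in which 10.6% of probe sets were higher in roots by adjusted p alone. Over promoter lines alone the difference was 0.56 ± 0.16 (adjusted p 0.00803), with 9% of probe sets higher. These averages cover different cell types in the 2 organs. In the 4 populations present in both organs the differences in response were 0.94 ± 0.40 in pSUC2 (adjusted p 0.26), 0.30 ± 0.31 in total RNA, 0.20 ± 0.38 in pGL2 and 0.16 ± 0.38 in p35S, so 0 of 4 were called and 1, pSUC2, had an unadjusted p under 0.05. In pSUC2 the hypoxic arrays were all above those in air in roots and all below them in shoots. Of all probe sets 23.9% were so separated upwards in root pSUC2 and 26.7% downwards in shoot pSUC2. Probe sets called in either direction made up 2.11% in pSUC2, 1.61% in total RNA, 1.44% in pGL2 and 0.611% in p35S.

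Levels of NAC014 under hypoxia were then set against each other between organs. The 21 hypoxic root arrays had a lowest value of 7.10, a median of 7.67 and a highest of 8.23, and the 15 hypoxic shoot arrays 7.03, 7.40 and 8.10. Root minus shoot under hypoxia, a comparison added after the values had been seen, was −0.41 ± 0.23 in total RNA (adjusted p 0.145), 0.08 in p35S, 0.44 in pGL2 and 0.36 in pSUC2, against −0.71, −0.08, 0.24 and −0.58 in air, with 0 of 4 called and 0 at an unadjusted p under 0.05 in limma, while 21.8% (pGL2) to 23.6% (total RNA) of probe sets were called. The highest hypoxic means were 7.92 (root pSCR) and 7.86 (shoot pCER5), and the lowest 7.32 (root total RNA) and 7.09 (shoot pSUC2). Neighbouring groups in these orders were again within 2 standard errors of each other, which again does not test groups further apart.

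Signs of RNA integrity were set beside these results. The gap between the 3′ and 5′ probe sets of an Athal actin control, which widens as RNA breaks, was smaller under hypoxia in 9 of 10 root populations, with changes from −0.81 to 0.02, and in 5 of 7 shoot populations, from −0.40 to 0.62. The second actin pair on the array was smaller in 6 of 10 root populations (−0.53 to 0.58) and in 4 of 7 shoot populations. The Athal GAPDH pair was smaller in 7 of 10 root (−0.47 to 0.52) and 5 of 7 shoot populations (−0.86 to 0.58). A second GAPDH pair was smaller in 5 of 10 root (−0.26 to 0.14) and 5 of 7 shoot populations (−0.28 to 0.27). In root pSCR and pPEP the Athal GAPDH gap changed by 0.41 and 0.52, and the Athal actin gap by −0.35 and −0.41. The part of RNA integrity in the NAC014 response was not tested.

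Whether the transcript is over- or under-represented on tagged ribosomes was asked by setting p35S polysomal RNA against total RNA. For NAC014 the differences were 0.28 ± 0.21 in control roots, 0.10 ± 0.26 in hypoxic roots, −0.36 ± 0.26 in control shoots and −0.39 ± 0.26 in hypoxic shoots. In hypoxic shoots the p35S arrays read 7.40 and 7.28 and the total RNA arrays 7.42, 8.10 and 7.66. In limma 0 of 4 were called and 0 had an unadjusted p under 0.05, with adjusted p from 0.399 to 0.873. Called in either direction were 6.03%, 4.66%, 3.13% and 3.54% of probe sets, in the same order. The change of this difference under hypoxia was −0.18 ± 0.33 in roots and −0.03 ± 0.36 in shoots, with 95% intervals of −0.85 to 0.49 and −0.76 to 0.69, so 0 of 2 were called in limma and 0 had an unadjusted p under 0.05. Of all probe sets 0.0264% were called in roots and 0% in shoots.

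The chromosomal surroundings of NAC014 held strong hypoxia responses on one side. In RefSeq's order of protein-coding genes (assembly TAIR10.1) the locus lies next to AT1G33055, beyond which is AT1G33050, and on the other side are AT1G33070 and AT1G33080. AT1G33055 was called higher in all 10 root and all 7 shoot populations, by between 4.44 (pPEP) and 6.00 (pRPL11C) in roots and between 4.21 (pCER5) and 5.65 (pSUC2) in shoots. AT1G33050 was called higher in 8 of 10 root populations and in 0 of 7 shoot populations, with medians of 2.72 and 0.00. In single populations 1.98% (p35S) to 4.15% (pCO2) of all probe sets were called higher in roots, and 1.05% (p35S and pRBCS) to 2.18% (pSUC2) in shoots. The share called in as many populations as these genes was not counted. The next gene outward on each side, AT1G33040 and AT1G33090, had no named probe set. The averaged root response of AT1G33050 exceeded the shoot one by 2.29, against 0.49 for NAC014 and 0.78 for AT1G33055.

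On the other side the responses were smaller. AT1G33070 was called in 0 of 17 populations, with responses from −0.21 to 0.16, and AT1G33080 was called lower in 1 root population, pSUC2 (−1.46), and its root average was −0.34 (adjusted p 0.00086). Values of 3 populations, picked after they had been seen, are set side by side. In root pRPL11C and root p35S NAC014 responded by 0.84 and 0.43 while AT1G33050 changed by −0.13 and −0.19, and in shoot pSUC2 AT1G33055 rose by 5.65 while the NAC014 difference was −0.34. These were picked as populations in which the genes differ. NAC014 means were higher under hypoxia in 10 of 10 root and 6 of 7 shoot populations, in all of which AT1G33055 was called higher. AT1G33050 was called higher in 8 of the 10 root populations.

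**Figure D3:**
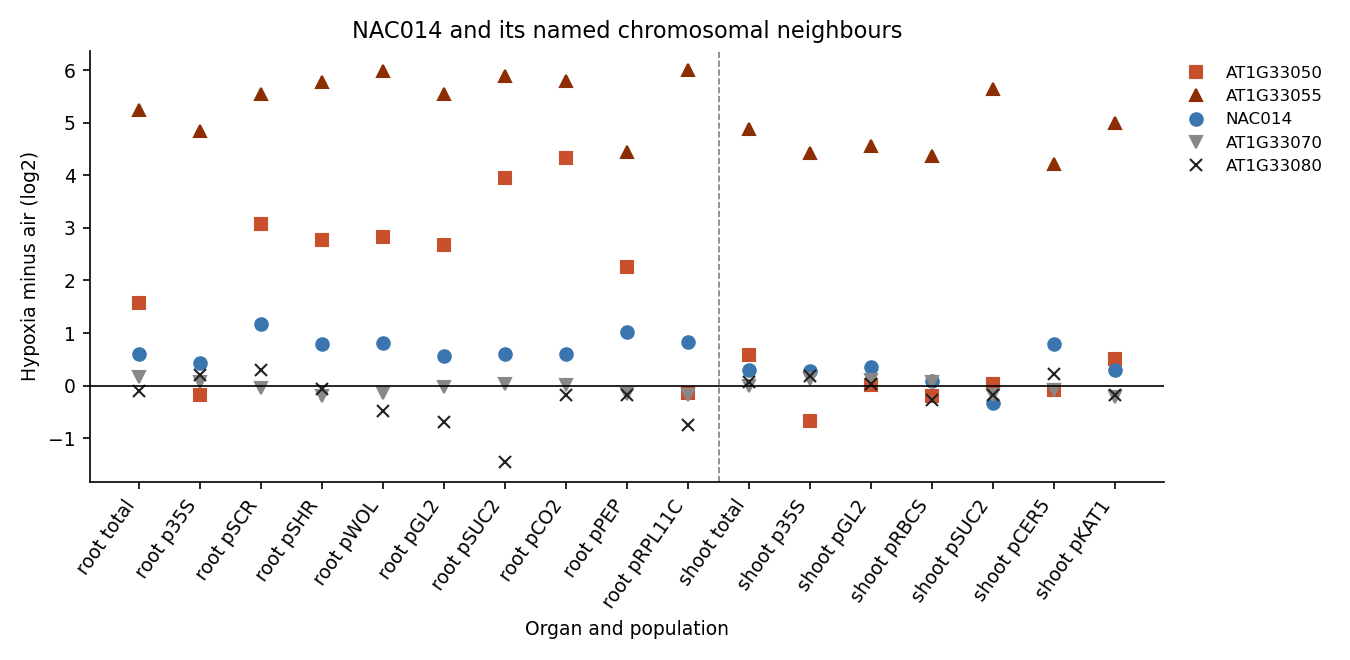
Hypoxia minus air difference (log2) of NAC014 and of the 4 neighbouring genes with a named probe set, in 10 root populations (left of the dashed line) and 7 shoot populations. AT1G33055 lies above 4 throughout, AT1G33050 is high in 8 root populations, NAC014 lies between −0.34 and 1.17, and AT1G33070 stays near 0.

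Genes whose levels ran most like those of NAC014 were sought over the 36 group means, by Pearson's r, a rule chosen after the values had been seen. The groups share organs, treatment and, for total RNA and p35S, plants, so r is a description. Over 13512 other named probe sets the median r was 0.00, and 99% lay below 0.62. The 5 highest were AT3G12150 (0.85), AT1G25550 (0.81), AT5G44730 (0.81), AT1G80850 (0.80) and the galacturonosyltransferase gene GAUT15 (0.80). As r was taken over air and hypoxia groups together, the choice favoured genes that rise under hypoxia, so their rise is no separate result. All 5 rose more than NAC014 in the root average, by between 1.66 (GAUT15) and 4.75 (AT5G44730). In the shoot average they rose by between 0.64 (AT1G80850) and 2.67 (AT5G44730). In shoot pSUC2, where NAC014 was at −0.34, they lay between 0.24 and 2.07. The r of AT1G33055 was 0.70 and that of AT1G33050 was 0.58.

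Of genes known to act downstream of NAC factors few could be read. The list of targets of NAC013 and NAC017 in mitochondrial dysfunction had 6 measured genes of 16 listed. HSP23.5, a mitochondrial small heat shock protein gene, was called higher in 7 of 10 root populations and in 1 of 7 shoot populations (pSUC2, 2.72). Its responses ran from 1.40 to 4.15 in roots (median 2.42, highest in pCO2) and from 0.56 to 2.72 in shoots (median 1.07). GSTU25, a glutathione transferase gene, was called higher in 1 root population, pPEP (1.17). Its responses ran from 0.07 to 1.17 in roots (median 0.70) and from −0.18 to 0.49 in shoots. UPOX (root median 0.54, shoot median −0.38) and NDB2, an alternative NADH dehydrogenase gene (−0.26 and −0.16), were called in 0 of 17 populations, as were the other 2 genes of the list. Between 1.98% (p35S) and 4.15% (pCO2) of all probe sets were called higher in single root populations. The list of senescence and abscisic acid targets had 1 measured gene of 12, SAG29, called in 0 of 17 populations (root median −0.21, shoot median 0.13), and the list of secondary wall targets had 0 of 15.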

How the data were processed

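Per the submitters' processing notes, the deposited log2 values were made by the authors with RMA in the R package affy (background correction, quantile normalization, median polish); versions, and whether all 79 arrays were normalized together, are not given in the sources used here. After 64 control probe sets were left out, 22746 probe sets were fitted with limma 3.58.1 in R 4.3.3: 1 mean per group over 36 groups, variances moderated with 4.48 prior beside 43 residual degrees of freedom, Benjamini-Hochberg adjustment per contrast. Calls needed an adjusted p under 0.05 and an absolute difference of at least 1. The fit was tested on simulated data. The number of arrays limits the precision; labels describe replicates as independent biological experiments. The array annotation was matched to RefSeq (TAIR10.1). No genome build is stated for the array, so no coordinates are given.

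Of the 12 gene lists, 8 are groups of NAC genes, in which NAC014 (membrane-tethered list, 1 of 16) was the only measured gene. The rule for named genes let every member be named, and of each list of targets up to 4 genes by size of the median response; neighbours, the 5 genes of most like pattern, averages over populations, organ differences under hypoxia and F-tests over all populations were added after values had been seen. Genes, lists and rules were chosen with earlier results of these data known. Like-numbered air and hypoxia arrays deviated together in total RNA (correlations 0.26, 0.54 and 0.72 in roots, 0.36, 0.22 and 0.60 in shoots), and ranged from −0.23 to 0.59 in populations with 2 shared numbers, so the numbers were taken to pair total RNA only. Alternatives were another scaling, quantile normalization, 50 added to linear values, a filter on low means, the replicate block, separate organs, array weights, no minimum difference, and each array left out. For averages over populations, promoter lines alone counted as a further alternative.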

Additional observations from a re-analysis of the deposited data

Results flagged for a closer look

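The averaged hypoxia response of NAC014 differed between the organs, in a comparison added after the values had been seen. It was larger in roots than in shoots by 0.49 ± 0.13 (limma, adjusted p 0.00496), where 10.6% of probe sets were higher by adjusted p alone. Population means were higher under hypoxia in 10 of 10 root and 6 of 7 shoot populations. The averages cover different cell types, and in populations present in both organs 0 of 4 differences in response were called. In NAC014 signal no array stood apart in the 1 group of 4 arrays that could be examined, root total RNA in air (6.94, 6.45, 6.88 and 6.57). By array weights, replicate 4 of that group had 0.39, against 1.44, 2.24 and 1.09 for replicates 1, 2 and 3.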

How the results depend on the processing

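The count of root populations in which NAC014 was called, 2 of 10, was 1 with arrays centred on their medians, 0 with 50 added to the linear values, which shrinks differences by construction, and between 1 and 3 when single arrays were left out. The shoot count of 0 became 1 when 1 array was left out (range 0 to 1). With no minimum difference the count of organ differences in air went from 0 to 1 and that of line differences in air from 0 to 1, and the latter ranged from 0 to 1 over single arrays left out. The root pPEP difference from other lines in air lost its adjusted p with median centring (−0.44, adjusted p 0.0772), quantile normalization (−0.47, adjusted p 0.0726), 50 added (−0.39, adjusted p 0.0548) and array weights (−0.59, adjusted p 0.132). Counts for organ differences in response, for the F-tests and for polysomal against total RNA stayed at 0 under every alternative run. The averaged root response lay between 0.56 and 0.80 over the other settings and between 0.70 and 0.79 over single arrays left out. The root minus shoot difference lay between 0.36 and 0.56, and 0.44 and 0.53. The adjusted p was under 0.05 throughout. The upper ends over settings, 0.80 and 0.56, are those of promoter lines alone, a different set of populations. The averaged shoot response passed the adjusted p with median centring (0.29, adjusted p 0.0317), quantile normalization (0.27, adjusted p 0.0396), the replicate block (0.26, adjusted p 0.0134, with pairing not established outside total RNA) and array weights (0.28, adjusted p 0.0195), and not with the other settings. Over single arrays left out it ran from 0.21 to 0.30 and passed in 4 of 30 cases, namely without air replicate 2 or hypoxic replicate 1 of total RNA, air replicate 2 of pCER5 or hypoxic replicate 2 of pKAT1; the cause was not tested. The shoot response of pCER5 passed the adjusted p with the block (0.80, adjusted p 0.0142) and with array weights (0.80, adjusted p 0.0182), short of the size of 1. The replicate block brought root pSHR (adjusted p 0.01), pWOL (0.00816) and pCO2 (0.0443) under 0.05 too, short of the size of 1, in populations whose 2 shared numbers do not establish pairing; it changed no call. Root total RNA, pSHR and pWOL also passed the adjusted p with quantile normalization and with the filter on low means, so the number of root populations under 0.05 depends on these settings. The adjusted p of root pRPL11C was above 0.05 without air replicate 1 (0.141), air replicate 2 (0.0951) or hypoxic replicate 1 (0.19). Median centring moved the median of all probe sets by up to 0.16 in a contrast.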
